A study of Mus musculus with 26 samples.

Results

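The 49 genes described here belong to the Fanconi anaemia pathway, homologous recombination, fork protection and translesion synthesis, the repair routes that act at stalled replication forks. They were taken by symbol for those functions. The rule uses no measured value, but the list was drawn up with earlier results of these data known. The count table listed 25239 genes. All 49 were present in each of the 6 tables and passed the filter on low values in each fit. HMCES is a sensor of abasic sites in single-stranded DNA, to which it binds covalently, so that the site is shielded from nucleases and error-prone polymerases. In the Fanconi pathway a core ubiquitin ligase marks the FANCI-FANCD2 clamp at crosslinked DNA. BRCA1, PALB2 and BRCA2 load the recombinase on resected DNA, and translesion polymerases copy damaged template once RAD18 has ubiquitinated the sliding clamp PCNA. Embryonic stem cells divide fast, spend most of their cycle in S phase and are known for high expression of replication and recombination genes.

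RNA was sequenced in 26 libraries of HMCES-KO or wild-type (WT) mouse embryonic stem cells, C57BL/6 per the labels, in serum medium on gelatin. For untreated cells, a count table held 2 libraries each of the knockout lines KO8 and KO7 and of WT, and a separate TPM table (transcript abundance scaled per length and library) held 2 HMCES-KO and 2 WT libraries. The other 4 TPM tables each held 1 library of each of the lines labelled HMCES-KO1 and HMCES-KO2, beside 2 WT libraries, after 2 h of treatment. The treatments were 50 ng/ml activin A, which activates the Nodal/activin receptors, 10 µM SB431542, which inhibits them, 10 ng/ml BMP4, and 50 nM LDN193189, which inhibits BMP receptors. The sources used here do not say whether KO7 and KO8 are the lines HMCES-KO1 and HMCES-KO2, nor what CCE and K8 stand for, the names of the WT and knockout columns in the untreated TPM table. No label states that libraries were grown as separate cultures. All p-values therefore measure variation among these libraries, part of which may be technical.

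Total counts per library lay between 9571113 and 13512922 in the count table, and the reads recovered from the untreated TPM table lay between 8524110 and 10037099. The targeted gene, Hmces, had 86.8 and 81.55 CPM (counts scaled to library size) in KO8 and 124.7 and 126.8 CPM in KO7, against 297 and 357 CPM in WT. Untreated TPM libraries had 159.5 and 166.1 TPM in HMCES-KO, against 754.9 and 750.2 TPM in WT. Over the treated tables Hmces was 325 to 400 TPM in HMCES-KO1 and 143 to 184 TPM in HMCES-KO2, against 507 to 663 TPM in WT, and it was lower in HMCES-KO2 than in HMCES-KO1 (log2 fold change -1.06 ± 0.07, limma adjusted p = 0.00011). It fell in the mean of the treatments (-1.27 ± 0.21, limma adjusted p = 0.0005) and under activin A (limma adjusted p = 0.038), and was not called under SB431542, BMP4 or LDN193189 (limma adjusted p = 0.076 to 0.14). All 10 embryonic stem cell markers were detected in both genotypes, with summed TPM, computed from the counts, of 13094 to 13108 in KO8, 13681 to 13740 in KO7 and 13037 to 13495 in WT. In the mean of KO8 and KO7, 4 of the 10 rose and 3 fell at an edgeR adjusted p under 0.05. Of all genes 19.9% rose and 20.8% fell. The largest such changes without overlap were those of Klf2 (1.18 ± 0.05, edgeR adjusted p = 7.5e-13), Dppa5a (-0.60 ± 0.05, edgeR adjusted p = 4.1e-08) and Klf4 (-0.56 ± 0.04, edgeR adjusted p = 8.2e-09). Of 10 endoderm markers 8 were tested, and all 8 fell in the mean of KO8 and KO7 at that threshold, where 20.8% of all genes fell. The endoderm sums were 10.5 to 12.6 TPM in KO8, 22.9 to 23.1 TPM in KO7 and 62.4 to 70.8 TPM in WT. Of 8 fibroblast markers 4 were tested and all 4 fell, where 20.8% of all genes did. The sums were 24.5 to 26.8 TPM in KO8, 18.5 to 18.9 TPM in KO7 and 64.3 to 64.6 TPM in WT. Most of this was Thy1, with means of 19.0 TPM in HMCES-KO and 55.0 TPM in WT. Postn was at 0 in all 6 libraries. Col3a1 and Dcn were at 0 in WT and had means of 0.0588 and 0.0999 TPM in HMCES-KO. Under treatment the 8 endoderm markers listed summed to 17.9 to 57.3 TPM in HMCES-KO and 31.2 to 86.1 TPM in WT, and the 4 fibroblast markers listed to 4.37 to 23.5 TPM in HMCES-KO and 30.3 to 46.0 TPM in WT, with the HMCES-KO libraries below WT in each table. The untreated TPM libraries summed to 16.5 to 16.8 TPM in HMCES-KO and 21.1 to 21.4 TPM in WT for endoderm, and to 22.4 to 28.02 TPM in HMCES-KO and 35.1 to 36.8 TPM in WT for fibroblasts. At a limma adjusted p under 0.05, 1 stem cell marker rose and 4 fell in untreated TPM, and 3 rose and 3 fell in the mean of the treatments. Of the endoderm markers tested, 1 of 6 fell in untreated TPM and 4 of 8 in the mean of the treatments. For fibroblast markers these were 1 of 2 and 1 of 3. Of all genes 10.2% fell in untreated TPM and 20.7% in the mean of the treatments, and 5.80% and 13.8% rose. The part of endoderm or fibroblast cells in the results below, treated and untreated, was not tested. In bulk RNA, fewer cells of a type and less RNA per cell cannot be told apart.

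Measured per length, as TPM computed from the counts, the 49 genes spanned a wide range of levels. Rpa1, the large subunit of the single-strand DNA binding protein RPA, was at the top with 383 ± 5.10 TPM in HMCES-KO (SD, n = 4) and 429 ± 2.65 TPM in WT (SD, n = 2). The recombinase paralogue Rad51b was at the bottom with 3.22 ± 0.317 TPM in HMCES-KO and 4.55 ± 1.58 TPM in WT. It rested on 29 to 70 reads per library, so small changes in it were not detectable at this depth.

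A gene was called at a Benjamini-Hochberg adjusted p under 0.05 over all genes. The test was edgeR for counts and limma on log2(TPM + 1) for TPM, a scale that understates the change of low genes, and log2 fold changes are given ± SE. In the mean of KO8 and KO7 against WT, 10 of the 49 genes rose and 9 fell, where 19.9% of all genes rose and 20.8% fell (40.6% in either direction). That share is close to the background, and the median log2 fold change was -0.03, against -0.01 over all genes. With the 4 HMCES-KO libraries as 1 group, 6 of the 19 calls were left, all lower, namely Brca2, Fancd2, Rad50, Mad2l2, Xrcc3 and Chek2. In KO8 alone 8 rose and 10 fell, where 19.3% of all genes rose and 19.7% fell (38.9% in all). In KO7 alone 12 rose and 8 fell, where 19.0% of all genes rose and 19.2% fell (38.2% in all). The KO8 count was 8 without KO8 replicate 1, and the KO7 count was 10 and 11 without KO7 replicates 1 and 2.

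The untreated TPM comparison gave fewer calls, with 2 genes higher and 2 lower, where 5.80% of all genes rose and 10.2% fell. The median there was -0.11, against -0.06 over all genes. Brca2 alone was called without either WT library, and edgeR on the recovered reads called 11. The share of all genes called on the recovered reads is not given here. In the mean of the 4 treatments 7 genes rose and 18 fell, where 13.8% of all genes rose and 20.7% fell (34.5% in all). The median was -0.09, against -0.04 over all genes. A correction for gene length, added after the data were seen, gave 10 higher and 10 lower. It used the exon lengths of the count table, which are not those of the treated tables. The share of all genes called under it is not given here. The 8 treated HMCES-KO libraries are 2 lines measured in 4 tables each. With the libraries averaged per line, also added after the data were seen, 8 of the 25 calls were left, Fancf, Nbn, Rpa2, Rpa3 and Poli higher and Brca2, Fancm and Pcna lower. The other 17, among them Bard1, Atr, Chek1, Fancd2 and Rev3l, were then at a limma adjusted p of 0.0504 to 0.153.

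**Figure D1:**
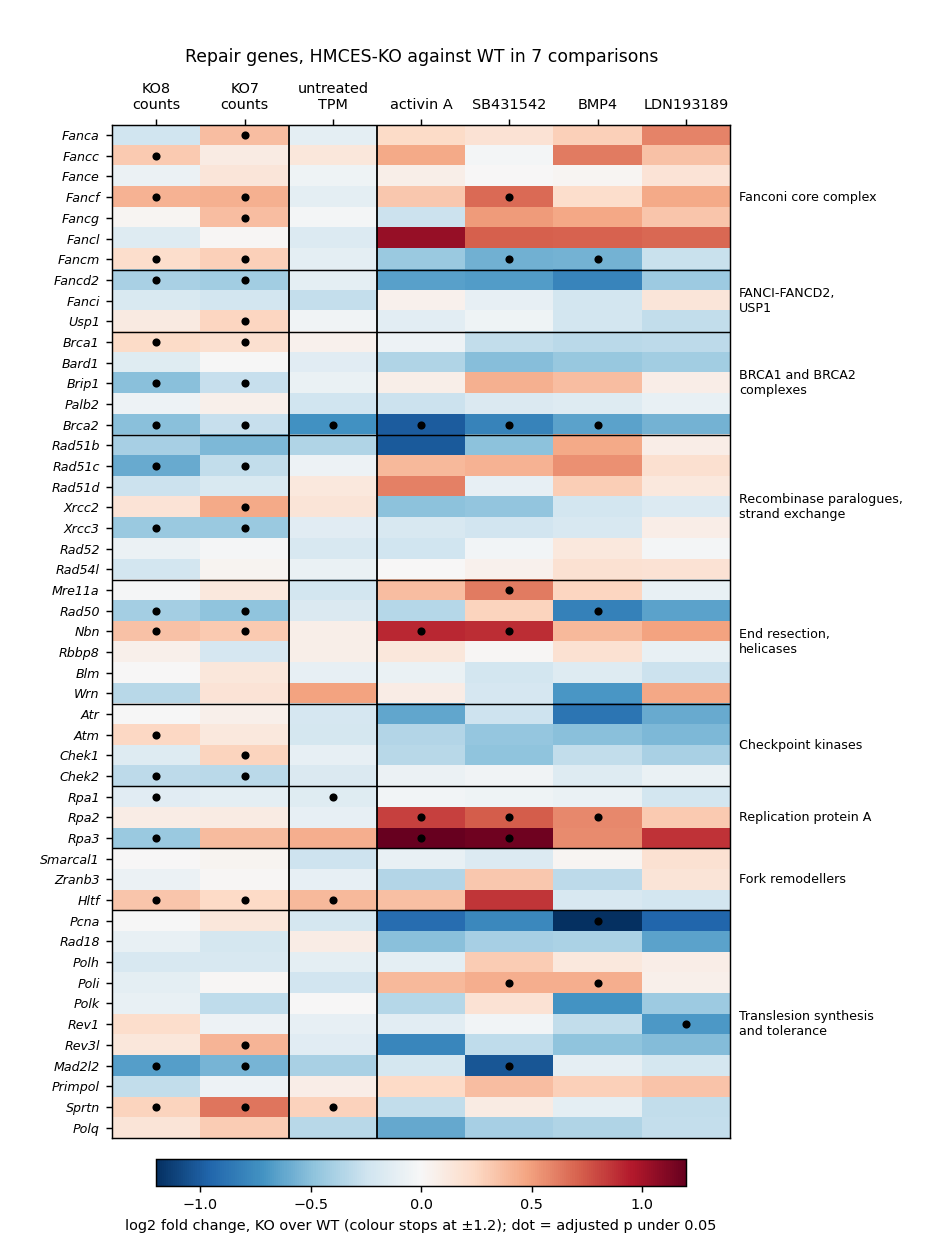
Log2 fold change of HMCES-KO over WT for the 49 repair genes (down the page, grouped by role) in 7 comparisons (across), in red where higher in HMCES-KO and in blue where lower, with a dot at an adjusted p under 0.05. Brca2 carries a dot in 6 of the 7 columns and is blue in all 7, Nbn is red in all 7, and 20 of the 49 genes carry no dot.

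Brca2 carried the most calls. Its protein loads the recombinase onto single-stranded DNA and shields stalled forks from nucleases, and the gene lies on the plus strand at chr5:150522621-150570146 (mm10), with 11.133 kb of exons. In the count table Brca2 had 116 and 118 CPM in KO8 and 137 and 135 CPM in KO7, against 168 and 162 CPM in WT. The untreated TPM libraries of Brca2 had 45.8 and 44.7 TPM in HMCES-KO, against 79.3 and 71.7 TPM in WT. Every HMCES-KO library lay below every WT library in both. The log2 fold change was -0.50 ± 0.06 (edgeR adjusted p = 2.1e-06) in KO8 and -0.28 ± 0.06 (edgeR adjusted p = 0.00091) in KO7. For the untreated TPM table it was -0.72 ± 0.07 (limma adjusted p = 0.0045).

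Treated cells gave the same direction for Brca2. Under activin A it had 27.00 TPM in HMCES-KO1 and 28.5 TPM in HMCES-KO2, against 57.9 and 55.01 TPM in WT. Under LDN193189 it had 31.5 TPM in HMCES-KO1 and 31.4 TPM in HMCES-KO2, against 50.1 and 44.4 TPM in WT. The HMCES-KO and WT libraries stood apart in each of the 4 treated tables. The difference was -0.999 ± 0.17 (limma adjusted p = 0.0025) under activin A, -0.80 ± 0.17 (limma adjusted p = 0.0083) under SB431542 and -0.65 ± 0.17 (limma adjusted p = 0.036) under BMP4. Brca2 was not called under LDN193189, at -0.57 ± 0.17 (limma adjusted p = 0.096), and its mean over the treatments was -0.75 ± 0.08 (limma adjusted p = 2.3e-05). The SB431542 call was lost without either WT library of that table (limma adjusted p = 0.059 and 0.060), and the BMP4 call without any of 7 single libraries (limma adjusted p = 0.053 to 0.21).

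The promoter of Brca2 is shown as that of the gene with the most calls, beside that of Fancf, which rose in the count table and under treatment. Both are from RefSeq on GRCm38.p6 and run from 250 bases before to 50 bases after the start of the gene. Of the 49 genes 39 were in that table. The search was for the E2F letters TTTGGCGC, TTTCGCGC and TTTCCCGC on both strands, E2F being the factor family that drives many S phase genes. Capitals mark the match, which lies on the reverse strand and begins at position -168 from the start of Brca2 (chr5:150522371-150522670, plus strand). The Fancf window (chr7:51862218-51862517, minus strand) holds none. Neither of the 2 promoters of Mad2l2, which fell in the count table and under treatment, holds the letters.
Brca2: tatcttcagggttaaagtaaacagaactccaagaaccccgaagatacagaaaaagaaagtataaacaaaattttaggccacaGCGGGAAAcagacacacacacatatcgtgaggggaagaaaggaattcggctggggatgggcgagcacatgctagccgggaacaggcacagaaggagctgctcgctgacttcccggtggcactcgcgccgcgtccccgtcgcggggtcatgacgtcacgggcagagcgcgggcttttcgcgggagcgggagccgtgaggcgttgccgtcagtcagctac
Fancf: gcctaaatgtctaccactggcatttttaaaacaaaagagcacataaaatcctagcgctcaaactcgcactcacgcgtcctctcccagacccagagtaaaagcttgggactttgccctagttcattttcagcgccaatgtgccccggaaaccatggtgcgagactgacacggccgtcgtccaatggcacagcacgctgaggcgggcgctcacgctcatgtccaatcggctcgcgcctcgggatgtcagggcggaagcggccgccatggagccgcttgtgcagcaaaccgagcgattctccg
Of the 47 promoters of the 39 genes, 6 held the E2F letters (12.8%), those of Fancg, Bard1, Brca2, Rad51c and Chek2, as did 606 of all 32851 promoters in the table (1.84%). A CCAAT box was in 57.4% of the promoters of these genes and in 37.4% of all, and GGGCGG, letters bound by Sp1, in 63.8% and 35.7%. The letters TTTGAA or TTCGAA of the CHR element, found in promoters of many mitotic genes, were in 17% of the promoters of these genes and in 19.2% of all. A match of letters is a description of the window, not of binding.

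Of the 7 genes of the Fanconi core complex, 2 rose in the mean of KO8 and KO7 and none fell, where 19.9% and 20.8% of all genes did. Over the treatments 2 rose and 1 fell in the mean, where 13.8% and 20.7% of all genes did. Fancf, the adaptor subunit, had 26.01 and 23.9 CPM in KO8 and 23.3 and 27.1 CPM in KO7, against 17.7 and 19.7 CPM in WT. All 4 HMCES-KO libraries lay above both WT libraries, at 0.42 ± 0.11 (edgeR adjusted p = 0.0033). Under treatment Fancf had 149 to 183 TPM in the HMCES-KO libraries (median 156), against 104 to 146 TPM in the WT libraries (median 119). The groups stood apart within each of the 4 tables, with a mean difference of 0.42 ± 0.06 (limma adjusted p = 0.00032). The untreated TPM table went the other way without a call. Fancf had 23.1 and 26.3 TPM in HMCES-KO, against 27.5 and 26.3 TPM in WT there, a difference of -0.12 ± 0.10 (limma adjusted p = 0.43). It shares 253 bases with Gas2 on the opposite strand, and since the sources used here name no strand setting, reads of both cannot be told apart there.

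Fancm, the DNA translocase that recruits the core complex to the fork, had 108 and 110.4 CPM in KO8 and 114 and 116 CPM in KO7, against 92.97 and 96.2 CPM in WT. It rose without overlap, at 0.24 ± 0.06 (edgeR adjusted p = 0.0016). The untreated TPM libraries went the other way, with 48.6 and 51.5 TPM in HMCES-KO, against 54.6 and 54.1 TPM in WT, apart but not called at -0.12 ± 0.06 (limma adjusted p = 0.24). Under treatment Fancm had 29.5 to 40.6 TPM in the HMCES-KO libraries (median 37.1), against 46.4 to 60.3 TPM in the WT libraries (median 49.96). It was below WT in each table, with a mean difference of -0.46 ± 0.07 (limma adjusted p = 0.00028). Its SB431542 call was lost without any library of that table (limma adjusted p = 0.0526 to 0.139), and its BMP4 call without HMCES-KO2 or either WT library (limma adjusted p = 0.154 to 0.183). Fancl, the ubiquitin ligase subunit, was low in the counts, at 6.21 and 7.76 CPM in KO8 and 7.85 and 7.81 CPM in KO7, against 7.54 and 8.05 CPM in WT. It was called in the mean of the treatments alone, at 0.79 ± 0.22 (limma adjusted p = 0.015), with overlap under SB431542. Averaged per line, that call was lost (limma adjusted p = 0.0758). Fancl shares 385 bases with Vrk2 on the opposite strand, where reads of both cannot be told apart. Fancc rose in KO8 (0.31 ± 0.12, edgeR adjusted p = 0.041), and Fanca (0.37 ± 0.12, edgeR adjusted p = 0.024) and Fancg (0.37 ± 0.11, edgeR adjusted p = 0.01) rose in KO7. Each of these was lost without some library (edgeR adjusted p up to 0.16, 0.154 and 0.125). Fance was called nowhere, at 0.04 ± 0.07 in the mean of the lines.

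FANCD2 is the clamp subunit that the core complex marks, in a pair with FANCI. Fancd2 had 42.01 and 41.8 CPM in KO8 and 40.9 and 41.4 CPM in KO7, against 56.5 and 53.2 CPM in WT. It fell without overlap, at -0.40 ± 0.07 (edgeR adjusted p = 0.00017), and was negative in all 7 comparisons. In the mean of the treatments it was -0.64 ± 0.19 (limma adjusted p = 0.02), a call lost without WT replicate 2 of the LDN193189 table (limma adjusted p = 0.0503). Fancd2 lies on chromosome 6 beyond 60 Mb, with Rad18, Rad52 and Hmces itself. The 422 genes tested in that region had a median of -0.32 in the mean of KO8 and KO7, against 0.00 elsewhere, and the 388 tested in the treated tables one of -0.21, against -0.04. In the untreated TPM table the region stood at 0.03, against -0.06 elsewhere. Fancd2 had 36.1 and 31.9 TPM in HMCES-KO, against 35.96 and 37.7 TPM in WT there, with overlap and a difference of -0.11 ± 0.09 (limma adjusted p = 0.41). The part of the region in the Fancd2 result was not tested. Fancd2 also shares 259 bases with Fancd2os on the opposite strand.

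Fanci was not called, at -0.20 ± 0.08 in the counts and -0.03 ± 0.09 under treatment. Usp1, the deubiquitinase that removes the mark, had 189 and 198 CPM in KO8 and 216 and 215 CPM in KO7, against 177 and 183 CPM in WT. All HMCES-KO libraries were above WT, at 0.18 ± 0.05 (edgeR adjusted p = 0.006) in the mean of the lines. Alone, KO7 was called for Usp1 and KO8 was not. Usp1 went the other way in treated cells. Its mean under treatment was -0.18 ± 0.05 (limma adjusted p = 0.024), which a length correction ended (limma adjusted p = 0.139), as did leaving out any of 4 single libraries.

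Around BRCA1, the ligase that directs repair to recombination, the genes moved apart. Brca1 had 230.3 and 229 CPM in KO8 and 221 and 228 CPM in KO7, against 205 and 187 CPM in WT. It rose without overlap in the counts, at 0.21 ± 0.05 (edgeR adjusted p = 0.0026), and fell in the mean of the treatments, at -0.25 ± 0.06 (limma adjusted p = 0.0035). A length correction ended that fall (limma adjusted p = 0.232). Bard1, its obligate partner, was not called in the counts (-0.07 ± 0.06). Under treatment Bard1 had 22.5 to 29.1 TPM in the HMCES-KO libraries (median 25.5), against 30.1 to 38.9 TPM in the WT libraries (median 34.6). It was below WT in each table, at -0.43 ± 0.08 (limma adjusted p = 0.0012) in the mean. Brip1, the helicase that binds BRCA1, had 19.8 and 21.4 CPM in KO8 and 24.7 and 23.6 CPM in KO7, against 30.6 and 27.8 CPM in WT. It fell without overlap, at -0.39 ± 0.09 (edgeR adjusted p = 0.0024), and was positive and not called under treatment, at 0.24 ± 0.13 (limma adjusted p = 0.16). Palb2, which bridges BRCA1 and BRCA2, was called in no comparison, and its untreated TPM difference was -0.24 ± 0.07 (limma adjusted p = 0.059).

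Among the recombinase paralogues, Rad51c and Xrcc3, which form a complex with each other, fell in the counts. Rad51c had 23.7 and 28.4 CPM in KO8 and 33.98 and 30.4 CPM in KO7, against 42.7 and 36.3 CPM in WT. Xrcc3 had 27.3 and 27.4 CPM in KO8 and 25.8 and 29.2 CPM in KO7, against 38.9 and 35.5 CPM in WT. All 4 HMCES-KO libraries were below both WT libraries for each, at -0.45 ± 0.09 (edgeR adjusted p = 0.00084) for Rad51c and -0.45 ± 0.09 (edgeR adjusted p = 0.0004) for Xrcc3. Neither was called under treatment, where Rad51c stood at 0.39 ± 0.15 (limma adjusted p = 0.067) and Xrcc3 at -0.13 ± 0.11 (limma adjusted p = 0.37). Xrcc2, which acts with RAD51D, had 41.2 and 45.9 CPM in KO8 and 53.9 and 52.5 CPM in KO7, against 40.4 and 37.1 CPM in WT. It rose without overlap, at 0.31 ± 0.08 (edgeR adjusted p = 0.0038), and was lower in the mean of the treatments, at -0.34 ± 0.10 (limma adjusted p = 0.018). Of the lines alone, Xrcc2 was called in KO7 and not in KO8. Rad51b, Rad51d, Rad52, which anneals single strands, and Rad54l, a translocase that helps the recombinase invade, were not called in any comparison with WT. In the mean of KO8 and KO7, Rad51b stood at -0.47 ± 0.24, Rad51d at -0.22 ± 0.09, Rad52 at -0.04 ± 0.12 and Rad54l at -0.09 ± 0.07.

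MRE11, RAD50 and NBN act as a single nuclease and sensor of broken ends, and their genes differed in direction. Rad50 had 72.2 and 66.2 CPM in KO8 and 63.6 and 67.8 CPM in KO7, against 97.8 and 85.05 CPM in WT. It fell without overlap, at -0.44 ± 0.07 (edgeR adjusted p = 3.8e-05). Nbn had 36.9 and 38.4 CPM in KO8 and 37.9 and 35.7 CPM in KO7, against 28.7 and 30.5 CPM in WT. It rose without overlap, at 0.33 ± 0.08 (edgeR adjusted p = 0.0035), and was positive in all 7 comparisons. Under activin A Nbn had 61.5 TPM in HMCES-KO1 and 55.6 TPM in HMCES-KO2, against 34.5 and 27.5 TPM in WT. Under SB431542 it had 71.8 TPM in HMCES-KO1 and 55.6 TPM in HMCES-KO2, against 35.5 and 32.1 TPM in WT. The libraries stood apart in both tables and overlapped under BMP4. The differences were 0.90 ± 0.19 (limma adjusted p = 0.0091) under activin A and 0.88 ± 0.19 (limma adjusted p = 0.01) under SB431542, and the mean over the treatments was 0.66 ± 0.10 (limma adjusted p = 0.00018). Leaving out HMCES-KO1 or WT replicate 2 of either table ended that table's call (limma adjusted p = 0.0644 to 0.0966).

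Rad50 fell in the mean of the treatments too (-0.38 ± 0.10, limma adjusted p = 0.011), which a length correction ended (limma adjusted p = 0.0614), although under SB431542 both HMCES-KO libraries were above WT. Its call under BMP4 (-0.81 ± 0.20, limma adjusted p = 0.034) was lost without any library of that table (limma adjusted p = 0.0897 to 0.206). Mre11a, the nuclease, was not called in the counts (0.05 ± 0.06). Its rise in the mean of the treatments, 0.29 ± 0.09 (limma adjusted p = 0.032), was lost when any of 8 single libraries was left out (limma adjusted p = 0.0533 to 0.078). Rbbp8, the resection factor CtIP, and the RecQ helicase genes Blm and Wrn were not called against WT in any comparison with all libraries in the tests described with the methods. Leaving out 1 library gave a call for Blm or Rbbp8 in some comparisons, as it did for Palb2 under treatment. For Wrn in the untreated TPM table the call depended on the setting. Wrn had 18.1 and 16.4 TPM in HMCES-KO, against 11.1 and 13.1 TPM in WT there, with both HMCES-KO libraries above WT and a difference of 0.48 ± 0.13 (limma adjusted p = 0.054). It was called with quantile normalization (limma adjusted p = 0.0374), with the length correction (limma adjusted p = 0.0384) and by edgeR on recovered reads (adjusted p = 0.000183). Wrn lies on chromosome 8 beyond 30 Mb, as Sprtn does.

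**Figure D2:**
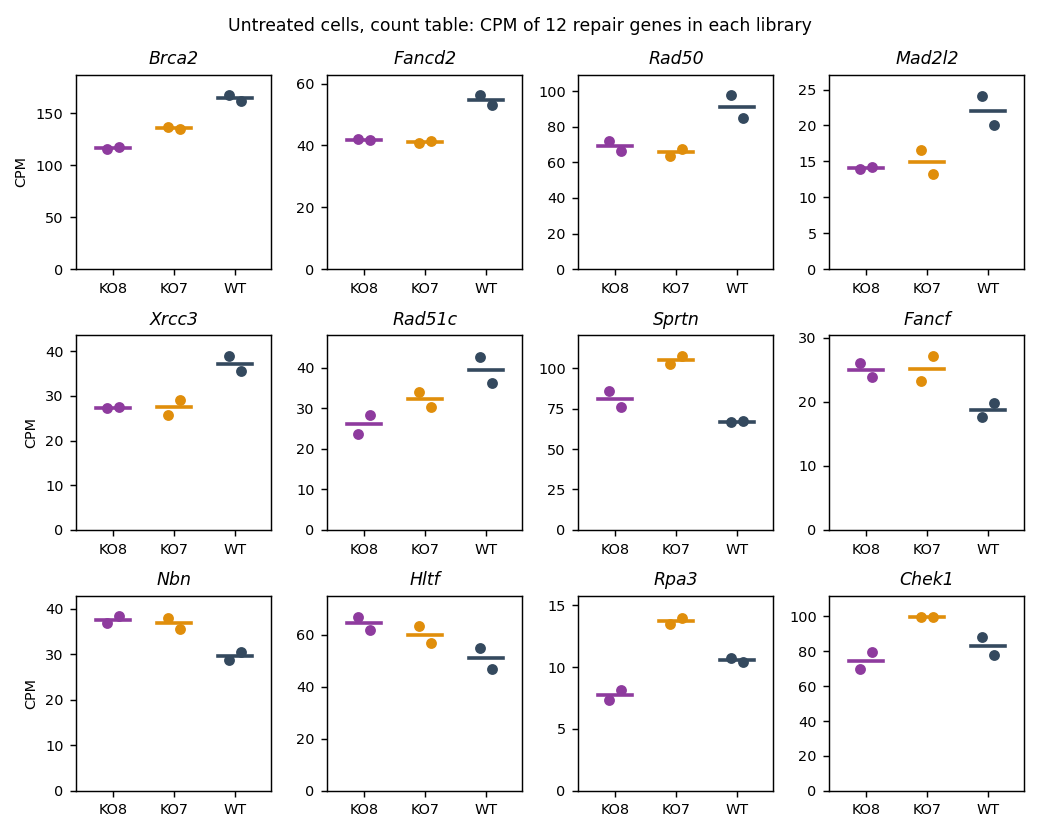
CPM (vertical axis, from 0) of 12 repair genes in each untreated library of the count table, with KO8, KO7 and WT from left to right, points for libraries and a line for the mean of 2. Brca2, Fancd2, Rad50, Mad2l2, Xrcc3 and Rad51c lie lower in all 4 HMCES-KO libraries than in WT, Sprtn, Fancf, Nbn and Hltf lie higher, and Rpa3 and Chek1 lie above WT in KO7.

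Of the checkpoint kinases, Atr, the kinase of stalled forks, and its target Chek1 were not called in the mean of KO8 and KO7, at 0.03 ± 0.07 and 0.06 ± 0.07. Under treatment Atr had 2.44 to 8.30 TPM in the HMCES-KO libraries (median 5.39), against 6.16 to 11.1 TPM in the WT libraries (median 8.78). Chek1 had 15.2 to 21.2 TPM in the HMCES-KO libraries (median 18.9), against 21.9 to 27.5 TPM in the WT libraries (median 23.5). Both were below WT in each of the 4 tables, and both fell in the mean, Atr at -0.59 ± 0.13 (limma adjusted p = 0.0037) and Chek1 at -0.38 ± 0.10 (limma adjusted p = 0.008). Averaged per line, the calls of both were lost (limma adjusted p = 0.0676 for Atr and 0.0668 for Chek1). Atm, the kinase of double-strand breaks, had 95.3 and 93.9 CPM in KO8 and 83.2 and 91.8 CPM in KO7, against 76.99 and 82.8 CPM in WT. The HMCES-KO libraries were just above WT. Alone, KO8 was called and KO7 was not, and the mean of both was called at 0.19 ± 0.06 (edgeR adjusted p = 0.023). That call was lost without WT replicate 1, KO7 replicate 2 or either KO8 library (edgeR adjusted p = 0.0532 to 0.128). The untreated TPM libraries had 34.1 and 33.2 TPM in HMCES-KO, against 38.7 and 39.5 TPM in WT. There HMCES-KO was below WT, at -0.21 ± 0.07 (limma adjusted p = 0.091). Under treatment Atm fell in the mean, at -0.46 ± 0.13 (limma adjusted p = 0.013), which a length correction ended (limma adjusted p = 0.215). Chek2, the kinase that ATM activates, had 46.6 and 50.2 CPM in KO8 and 48.8 and 47.7 CPM in KO7, against 64.1 and 56.4 CPM in WT. It fell without overlap in the counts, at -0.32 ± 0.07 (edgeR adjusted p = 0.0018), and stood at -0.09 ± 0.07 (limma adjusted p = 0.36) under treatment.

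RPA coats single-stranded DNA as a complex of a large, a middle and a small subunit, encoded by Rpa1, Rpa2 and Rpa3. Under activin A Rpa2 had 93.96 TPM in HMCES-KO1 and 106 TPM in HMCES-KO2, against 58.6 and 53.2 TPM in WT. Under SB431542 it had 99.3 TPM in HMCES-KO1 and 99.8 TPM in HMCES-KO2, against 63.9 and 55.6 TPM in WT. Under BMP4 it had 91.1 TPM in HMCES-KO1 and 97.1 TPM in HMCES-KO2, against 65.5 and 59.7 TPM in WT. Every HMCES-KO library was above every WT library of its table. The differences were 0.82 ± 0.14 (limma adjusted p = 0.003) under activin A, 0.73 ± 0.14 (limma adjusted p = 0.006) under SB431542 and 0.58 ± 0.14 (limma adjusted p = 0.03) under BMP4, with a mean of 0.61 ± 0.07 (limma adjusted p = 3.5e-05) over all 4 treatments. The activin A call held when any library was left out. The SB431542 call was lost without WT replicate 2 (limma adjusted p = 0.0689), and the BMP4 call without any library of that table (limma adjusted p = 0.0646 to 0.185).

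Rpa3 moved furthest. Under activin A it had 52.1 TPM in HMCES-KO1 and 36.4 TPM in HMCES-KO2, against 10.1 and 10.7 TPM in WT. Under SB431542 it had 51.8 TPM in HMCES-KO1 and 31.7 TPM in HMCES-KO2, against 18.2 and 16.98 TPM in WT. No HMCES-KO library reached down to a WT library in any of the 4 tables, and HMCES-KO1 was above HMCES-KO2 in each. The differences were 1.96 ± 0.29 (limma adjusted p = 0.0012) under activin A and 1.16 ± 0.29 (limma adjusted p = 0.02) under SB431542, with a mean of 1.14 ± 0.14 (limma adjusted p = 6.8e-05). Rpa3 was not called under BMP4, at 0.57 ± 0.29 (limma adjusted p = 0.27), or LDN193189, at 0.87 ± 0.29 (limma adjusted p = 0.13). The SB431542 call was lost without HMCES-KO1 or either WT library (limma adjusted p = 0.088 to 0.173).

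In untreated cells the subunits differed less. Rpa2 stood at 0.09 ± 0.06 in the counts and -0.10 ± 0.05 in the TPM table, uncalled in both. Rpa1 had 432 and 437 CPM in KO8 and 449 and 432 CPM in KO7, against 472 and 482 CPM in WT. It was lower without overlap, at -0.13 ± 0.04 (edgeR adjusted p = 0.029) in the mean of the lines, a call lost without any single HMCES-KO library. Of the lines alone, KO8 was called and KO7 was not. In the untreated TPM table Rpa1 was called at -0.14 ± 0.03 (limma adjusted p = 0.041), which was lost without either WT library or HMCES-KO replicate 2 (limma adjusted p = 0.0683 to 0.195).

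**Figure D3:**
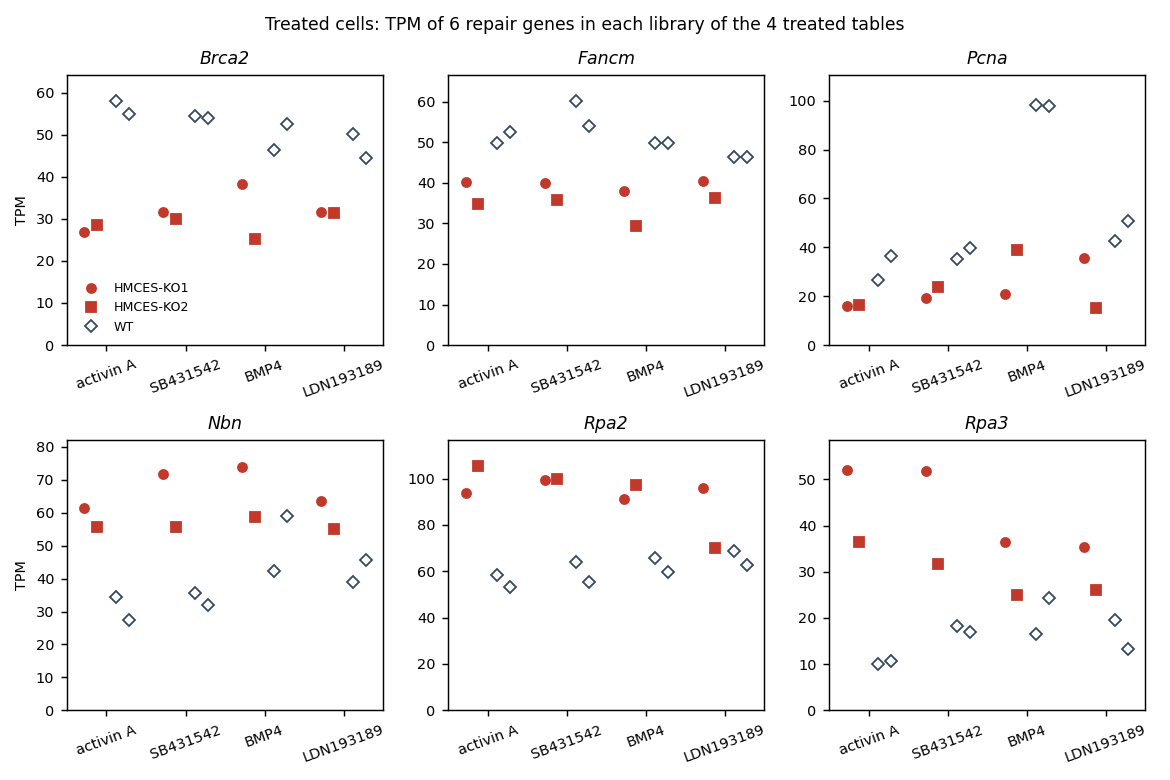
TPM (vertical axis, from 0) of 6 repair genes in the 4 treated tables (across), with HMCES-KO1 (circles) and HMCES-KO2 (squares) left of WT (open diamonds), 1 point per library. Brca2, Fancm and Pcna lie lower and Rpa2 and Rpa3 higher in both HMCES-KO libraries of each table, and Nbn overlaps with WT under BMP4.

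SMARCAL1, ZRANB3 and HLTF reverse stalled forks. In the counts Hltf had 66.97 and 61.8 CPM in KO8 and 63.3 and 56.9 CPM in KO7, against 54.9 and 46.95 CPM in WT. In the untreated TPM table it had 55.7 and 56.7 TPM in HMCES-KO, against 43.6 and 41.6 TPM in WT. It was higher in every untreated HMCES-KO library, at 0.29 ± 0.08 (edgeR adjusted p = 0.0066) in the mean of KO8 and KO7 and 0.39 ± 0.06 (limma adjusted p = 0.014) in the TPM table. The first call was lost without WT replicate 2 (edgeR adjusted p = 0.0548), and the other without either WT library (limma adjusted p = 0.0509 and 0.0702). Under treatment Hltf was low, with 2.59 to 8.36 TPM in the HMCES-KO libraries (median 4.81), against 2.54 to 6.62 TPM in the WT libraries (median 4.23), and stood at 0.20 ± 0.17 (limma adjusted p = 0.38). Smarcal1 and Zranb3 were not called in any comparison with WT, at 0.02 ± 0.07 and -0.03 ± 0.07 in the counts.

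Among the 11 genes of translesion synthesis and damage tolerance, 2 rose and 1 fell in the counts, where 19.9% and 20.8% of all genes did. Over the treatments 1 rose and 7 fell in the mean, where 13.8% and 20.7% of all genes did. Of those 7, the length correction ended 4, and averaging libraries per line left Pcna alone. In the counts Sprtn, the protease that degrades DNA-protein crosslinks at forks, had 85.8 and 75.7 CPM in KO8 and 102 and 107 CPM in KO7, against 66.8 and 67.2 CPM in WT. In the untreated TPM table it had 68.7 and 71.1 TPM in HMCES-KO, against 56.4 and 58.9 TPM in WT. It was higher in all untreated HMCES-KO libraries, at 0.46 ± 0.07 (edgeR adjusted p = 1.7e-05) in the mean of KO8 and KO7 and 0.27 ± 0.06 (limma adjusted p = 0.03) in the TPM table. The TPM call was lost without either WT library or HMCES-KO replicate 2 (limma adjusted p = 0.0746 to 0.135). After treatment Sprtn stood at -0.15 ± 0.08 (limma adjusted p = 0.15). Sprtn lies on chromosome 8 beyond 30 Mb, with Fanca, Wrn and Primpol. The 614 genes tested there had a median of -0.03 in KO8, against -0.01 elsewhere, and of 0.33 in KO7, against -0.02. For untreated TPM the median was 0.23, against -0.06. The part of the region in the Sprtn and Fanca results was not tested.

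REV7, the product of Mad2l2, and REV3L form polymerase zeta. Mad2l2 had 13.9 and 14.2 CPM in KO8 and 16.5 and 13.3 CPM in KO7, against 24.1 and 20.04 CPM in WT. It fell without overlap, at -0.61 ± 0.12 (edgeR adjusted p = 0.0004), and was negative in all 7 comparisons. Its mean under treatment, -0.39 ± 0.13 (limma adjusted p = 0.032), was lost when any of 9 single libraries was left out (limma adjusted p = 0.0583 to 0.0817). Rev3l, the catalytic subunit, had 69.9 and 68.8 CPM in KO8 and 85.3 and 82.7 CPM in KO7, against 65.4 and 60.99 CPM in WT. It rose without overlap in the counts, at 0.27 ± 0.06 (edgeR adjusted p = 0.0022), and was lower in the mean of the treatments, at -0.52 ± 0.13 (limma adjusted p = 0.0065). Of the lines alone, Rev3l was called in KO7 and not in KO8.

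Pcna, the sliding clamp on which translesion polymerases dock, had the lowest mean log2 fold change of the 49 genes under treatment. Under activin A it had 15.8 TPM in HMCES-KO1 and 16.2 TPM in HMCES-KO2, against 26.6 and 36.3 TPM in WT. Under BMP4 it had 20.7 TPM in HMCES-KO1 and 39.1 TPM in HMCES-KO2, against 98.3 and 97.9 TPM in WT. The HMCES-KO libraries were below WT in each of the 4 tables. The mean difference was -1.10 ± 0.16 (limma adjusted p = 0.00025). Within single tables Pcna was called under BMP4, at -1.75 ± 0.33 (limma adjusted p = 0.01), a call lost without HMCES-KO1 or either WT library (limma adjusted p = 0.0567 to 0.0687). In the untreated counts Pcna had 76.1 and 75.2 CPM in KO8 and 86.5 and 79.6 CPM in KO7, against 73.3 and 78.5 CPM in WT. These overlapped, at 0.07 ± 0.06 (edgeR adjusted p = 0.43), and the untreated TPM difference was -0.21 ± 0.06 (limma adjusted p = 0.056). Pcna has the pseudogenes Pcna-ps1 and Pcna-ps2, which the count table does not list, so its values are uncertain where reads come from near-identical copies.

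Poli, a Y family polymerase, had 97.1 to 122 TPM in the HMCES-KO libraries (median 114), against 76.4 to 104 TPM in the WT libraries (median 87.8) under treatment. It rose in the mean, at 0.33 ± 0.06 (limma adjusted p = 0.001). Its calls under SB431542 and BMP4 were lost without any library of the same table, and without limma's trend. The BMP4 call was kept under 7 of 23 alternatives. It was also lost with the replicate block, without any library of the activin A or SB431542 table, and without either WT library of the LDN193189 table. Rad18, the ligase that marks PCNA, fell in the mean at -0.48 ± 0.14 (limma adjusted p = 0.015), and lies in the chromosome 6 region. Also lower were Rev1, the scaffold polymerase (-0.29 ± 0.08, limma adjusted p = 0.012), the Y family polymerase Polk (-0.33 ± 0.10, limma adjusted p = 0.025) and Polq, the polymerase of theta-mediated end joining (-0.41 ± 0.11, limma adjusted p = 0.0094). A length correction ended the calls of Rev1, Polk, Polq and Rev3l (limma adjusted p = 0.0744 to 0.151), and the call of Polk was also lost without any of 7 single libraries. Polh, which copies ultraviolet lesions, and Primpol, which restarts synthesis beyond a lesion, were called in no comparison with WT.

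KO8 and KO7 differed from each other in 12 of the 49 genes, with 1 higher and 11 lower in KO8, where 13.9% of all genes were higher and 14.3% lower (28.2% in all). Rpa3 had 7.37 and 8.14 CPM in KO8 and 13.5 and 13.98 CPM in KO7, against 10.7 and 10.4 CPM in WT. KO8 lay below and KO7 above WT without overlap, and the lines differed by -0.82 ± 0.16 (edgeR adjusted p = 0.00059). Against WT it was called in KO8 alone (-0.44 ± 0.17, edgeR adjusted p = 0.041), a call lost without any of 5 single libraries (edgeR adjusted p = 0.0596 to 0.212). Chek1 was higher than WT in KO7 (0.26 ± 0.08, edgeR adjusted p = 0.011), which was lost without either KO7 library (edgeR adjusted p = 0.0665 and 0.0839). Fanca (-0.60 ± 0.13, edgeR adjusted p = 0.0013), Wrn (-0.49 ± 0.13, edgeR adjusted p = 0.0082), Chek1 (-0.42 ± 0.08, edgeR adjusted p = 0.00041) and Sprtn (-0.38 ± 0.07, edgeR adjusted p = 0.00054) were also lower in KO8. Fanca, Wrn and Sprtn lie in the chromosome 8 region, whose median difference between KO8 and KO7 was -0.36, against 0.01 elsewhere. Rev1 was the single gene higher in KO8 (0.28 ± 0.09, edgeR adjusted p = 0.024). Without KO7 replicate 1 or KO8 replicate 1 the count of calls was 4, without KO7 replicate 2 it was 6, and Chek1, Fanca, Rpa3 and Sprtn held under all 12 alternatives.

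Genes that mark S phase moved with this difference. Of 30 such genes outside the 49, 14 were lower and 0 higher in KO8 than in KO7 by edgeR, with a median of -0.17. Their summed TPM was 6209 to 6235 in KO8, 7048 to 7054 in KO7 and 6654 to 6664 in WT. Trophectoderm markers summed to 165 to 168 TPM in KO8, 68.7 to 73.1 TPM in KO7 and 83.2 to 83.7 TPM in WT. The part of either in the difference between the lines was not tested. Between HMCES-KO2 and HMCES-KO1, over the 4 treatments, 1 of the 49 genes was called, where 2.65% of all genes were higher and 1.97% lower (4.62% in all). It was Rpa3, lower in HMCES-KO2 (-0.54 ± 0.11, limma adjusted p = 0.02), a call lost without any 1 of 6 libraries (limma adjusted p = 0.0742 to 0.094).

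**Figure D4:**
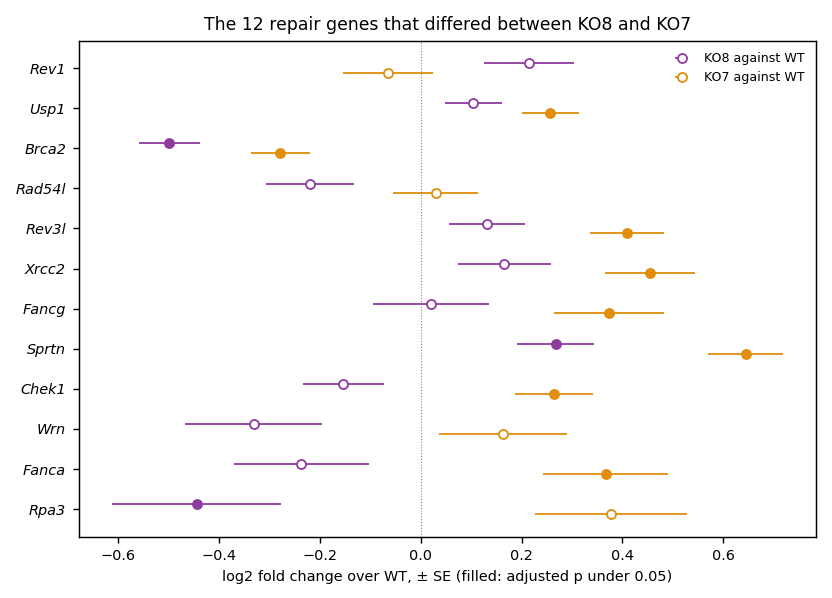
Log2 fold change over WT (horizontal axis, bars ± SE) in KO8 and in KO7 for the 12 repair genes that differed between these lines, filled where called against WT, with both lines set against the same 2 WT libraries. In 11 of the 12 genes KO8 lies to the left of KO7, and Rpa3 shows the widest gap.

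Set side by side, the count table and the mean of the treatments called 6 genes in the same direction, Fancf and Nbn higher and Fancd2, Brca2, Rad50 and Mad2l2 lower. Of these, Brca2 alone kept its call both with the 4 HMCES-KO libraries as 1 group and, under treatment, with libraries averaged per line. Another 6, Fancm, Usp1, Brca1, Xrcc2, Atm and Rev3l, were higher in the counts and lower under treatment. With the 4 HMCES-KO libraries as 1 group, none of these 6 kept its count call. Averaged per line, Fancm alone of them kept its treated call, and the length correction ended the treated calls of Usp1, Brca1, Atm and Rev3l. None of these 6 was called in the untreated TPM table. There Fancm, Usp1, Atm and Rev3l were lower in HMCES-KO without overlap, Xrcc2 was higher, and Brca1 overlapped. A further 7 were called in the counts alone and 13 in the treated tables alone. Over all genes 40.6% were called in the counts and 34.5% in the mean of the treatments. How many of all genes were called alike or oppositely was not counted, so these numbers have no background. The difference between the data sets was not tested, and their treatment, table and gene lengths cannot be told apart.

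Exon length, taken from the count table for all comparisons, moved with the results in both, and in the untreated TPM table. In the mean of the treatments the median of all genes was 0.02 for those under 2 kb and -0.22 for those over 8 kb. In the untreated TPM table it was -0.03 and -0.14, the same direction, and in the count table it was -0.06 and 0.08, the opposite direction. All 5 of the 49 genes over 8 kb, Brca2, Atm, Rev3l, Polq and Atr, fell in the mean of the treatments. Of the 7 under 2 kb, Fancf, Fancl, Rpa2 and Rpa3 rose, and Pcna and Mad2l2 fell. With the length correction 17 of the 25 calls were kept, among them Brca2, Atr, Fancm, Pcna, Rpa2, Rpa3 and Nbn. Those of Atm, Brca1, Polk, Polq, Rad50, Rev1, Rev3l and Usp1 ended, and Brip1, Rad51c and Rad51d were called as higher.

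**Figure D5:**
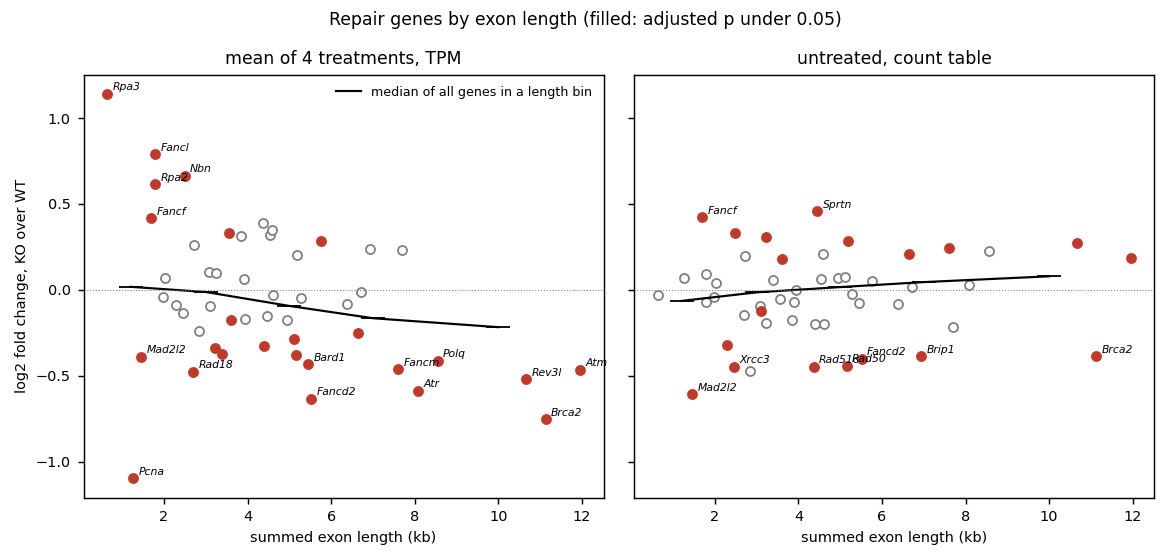
Log2 fold change of HMCES-KO over WT (vertical axis) against summed exon length in kb (horizontal axis) for the 49 repair genes, filled at an adjusted p under 0.05, in the mean of the 4 treatments (left) and in the count table (right), with the median of all genes in 5 length bins as a black line. The line falls with length on the left and rises on the right, and Brca2 and Pcna lie far below it on the left.

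Within single treatments, 3 of the 49 genes rose and 1 fell under activin A, where 5.10% of all genes rose and 7.03% fell (12.1% in all). Under SB431542 6 rose and 3 fell, where 5.41% of all genes rose and 6.73% fell (12.1% in all). Several of these calls were lost whichever single library of that table was left out. Under BMP4 2 rose and 4 fell, where 2.13% of all genes rose and 4.20% fell (6.33% in all). Quantile normalization gave 2 and 1 there, 1 call was left without HMCES-KO2, and none without either WT library. Under LDN193189 only Rev1 was called, at -0.69 ± 0.16 (limma adjusted p = 0.036), where 0.793% of all genes rose and 1.50% fell (2.29% in all). That call was lost without any library of that table, and without any WT library of the other treated tables. Rev1 shares 413 bases with Eif5b on the opposite strand. No gene of the 49, and none of the 12608 tested, differed in its HMCES-KO effect between activin A and SB431542 or between BMP4 and LDN193189 by limma, with 1 of the 49 at an unadjusted p under 0.05 in each.

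Counted by libraries alone, 3 genes were higher and 8 lower without overlap in all 4 treated tables, where 4.83% and 9.09% of all genes were. They were Fancf, Rpa2 and Rpa3, and Fancm, Bard1, Brca2, Atr, Atm, Chek1, Pcna and Polq. Among the untreated counts, 11 were higher and 13 lower without overlap, where 20.2% and 21.8% of all genes were. For the untreated TPM libraries the numbers were 9 and 30, where they were 23.3% and 39.3% of all genes.

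Other genes of the same pathways are given from the counts first, where 19.9% of all genes rose and 20.8% fell in the mean of KO8 and KO7. These shares were 5.80% and 10.2% in the untreated TPM table, and 13.8% and 20.7% in the mean of the treatments. Of 24 measured genes of the ATR checkpoint and fork stability, 8 rose and none fell in the counts, with a median of 0.08. Untreated TPM gave 1 higher and 3 lower, and the treatments 4 higher and 3 lower of 25. The largest changes in the counts among called genes without overlap, which are the ones named in each list, were those of Rif1, which protects forks and steers repair (0.51 ± 0.05, edgeR adjusted p = 3.5e-08), Smc6, of the SMC5/6 complex (0.30 ± 0.06, edgeR adjusted p = 0.00043), and Etaa1, an activator of ATR (0.29 ± 0.06, edgeR adjusted p = 0.00034). Rif1 was not called elsewhere, at -0.13 ± 0.04 in untreated TPM and -0.12 ± 0.05 under treatment.

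Of 23 further Fanconi genes 7 rose and 2 fell in the counts, with a median of 0.14. Untreated TPM gave 1 higher and 2 lower with a median of -0.12, and the treatments 4 higher and 2 lower with a median of 0.00. The largest such changes were those of Eme2 (0.65 ± 0.22, edgeR adjusted p = 0.024), the nuclease gene Fan1 (0.50 ± 0.12, edgeR adjusted p = 0.0027) and Mus81, partner of EME2 (0.43 ± 0.16, edgeR adjusted p = 0.032). None of these 3 was called in untreated TPM or in the mean of the treatments. Among 25 further recombination genes 6 rose and 6 fell in the counts, 0 rose and 3 fell in untreated TPM by limma, and 6 rose and 4 fell of 24 under treatment. The resolvase gene Gen1 (0.55 ± 0.08, edgeR adjusted p = 1.9e-05), the helicase gene Rtel1 (0.42 ± 0.07, edgeR adjusted p = 4.2e-05) and the topoisomerase gene Top3a (0.36 ± 0.07, edgeR adjusted p = 0.00072) had the largest such changes.

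The 23 further translesion and tolerance genes gave 8 higher and 3 lower in the counts, and of 22 tested elsewhere 1 was higher and 1 lower in untreated TPM and 3 were higher and 6 lower under treatment. Atad5, which unloads PCNA, was higher in the counts (0.33 ± 0.06, edgeR adjusted p = 0.00026) and lower in the mean of the treatments (-0.35 ± 0.10, limma adjusted p = 0.013). Ube2n, a ubiquitin conjugase gene, was higher in the counts (0.32 ± 0.09, edgeR adjusted p = 0.0057) and uncalled under treatment (-0.29 ± 0.20). Vcp, which encodes an unfoldase, was higher in both, at 0.30 ± 0.08 (edgeR adjusted p = 0.0051) in the counts and 0.46 ± 0.09 (limma adjusted p = 0.0012) under treatment.

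End joining gave 2 higher and 3 lower of 16 in the counts, 1 and 1 in untreated TPM, and 0 and 3 of 15 under treatment by limma. The largest such changes were those of Aplf (-0.59 ± 0.10, edgeR adjusted p = 8.3e-05), the polymerase gene Poll (-0.28 ± 0.08, edgeR adjusted p = 0.0088) and Shld2, of shieldin (-0.26 ± 0.08, edgeR adjusted p = 0.015). Of 30 S phase genes 8 rose and 5 fell in the counts, 5 and 4 in untreated TPM, and 6 and 6 under treatment. They included the cyclin gene Ccne2 (0.70 ± 0.24, edgeR adjusted p = 0.025), E2f1 (-0.39 ± 0.06, edgeR adjusted p = 2.1e-05) and the flap nuclease gene Fen1 (0.29 ± 0.05, edgeR adjusted p = 0.00027). Of 24 genes of G2 and M phase 3 rose and 4 fell in the counts, 2 and 4 in untreated TPM, and 5 and 4 under treatment. They included the kinase gene Ttk (-0.38 ± 0.06, edgeR adjusted p = 6.4e-05), Hmmr (-0.30 ± 0.06, edgeR adjusted p = 0.0002) and the cyclin gene Ccnb2 (-0.20 ± 0.06, edgeR adjusted p = 0.007).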

How the data were processed

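RNA-seq libraries of HMCES-KO and WT mouse embryonic stem cells were compared from 1 table of counts and 5 tables of TPM. Reads were aligned to mm10 with Bowtie2 2.3.3 and counted with featureCounts 2.0.1, and FastQC 0.11.5, SAMtools 1.9 and DESeq2 are also named, per the submitters' processing notes, which give no strand setting. The deposited counts are whole reads per gene. The deposited TPM values are scaled per length and library by the authors, and of the untreated TPM values 100% came out as whole reads within 0.01. The treated tables use other gene lengths, so their levels are not set against untreated ones. The length correction and the length bins used the exon lengths of the count table throughout, also for the treated tables. Their depth was not recovered here.

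Counts were tested with edgeR 4.0.16 (quasi-likelihood, TMM, filterByExpr, 3 groups of 2), in R 4.3.3, with the SE taken as the log2 fold change over the root of F. TPM values were tested with limma 3.58.1 (trended) on log2(TPM + 1) for genes at 1 TPM or more in at least 2 libraries. Treated libraries were rescaled over the 12928 genes shared by the 4 tables, which kept 99.95% to 99.97% of TPM, and 12608 were tested. Adjusted p-values are Benjamini-Hochberg over all genes. Both fits were tested on simulated data. Alternatives were DESeq2 1.42.0, other scalings and filters, a pseudocount of 0.1, a replicate block, each library left out, a length correction and libraries averaged per line. The 49 genes and the companion lists were chosen with earlier results of these data known, and the companion genes named are, per list, the 3 with the largest absolute log2 fold change among those called without overlap between HMCES-KO and WT in the counts. Postn, Col3a1 and Dcn were named after their values were seen. Replicate numbers did not pair HMCES-KO with WT libraries.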

Additional observations from a re-analysis of the deposited data

Results flagged for a closer look

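A library far from the others of its group is found by chance in about 1 in 20 groups. Among the 4 untreated HMCES-KO libraries of the count table, KO8 replicate 1 stood far below the others for Fancl, at 6.212 CPM, and below them for Rad52, at 15.16 CPM. Neither gene was called in the counts.

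The 2 knockout lines differed, by edgeR's test of KO8 against KO7, in 12 genes. The log2 fold changes were -0.8208 for Rpa3, -0.6035 for Fanca, -0.4943 for Wrn, -0.4173 for Chek1 and -0.3759 for Sprtn. They were -0.3534 for Fancg, -0.2891 for Xrcc2, -0.2775 for Rev3l, -0.2499 for Rad54l, -0.2203 for Brca2, -0.1527 for Usp1 and 0.2792 for Rev1. Under treatment Rpa3 differed between HMCES-KO2 and HMCES-KO1, at -0.5401. Fancm and Atm were higher in all 4 untreated HMCES-KO libraries of the count table and lower in all 8 treated ones than in the WT libraries of the same table, with treated log2 fold changes of -0.4636 for Fancm and -0.4643 for Atm. In the untreated TPM table, too, both were lower in HMCES-KO without overlap, and not called. Fancm had 48.6 and 51.45 TPM in HMCES-KO there, against 54.63 and 54.15 TPM in WT, and Atm had 34.09 and 33.2 TPM in HMCES-KO, against 38.68 and 39.55 TPM in WT. The difference between the count table and the other tables was not tested.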

How the results depend on the processing

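Among the 9261 combinations of a gene, a comparison and an alternative, 8846 stayed on the same side of the threshold, 316 lost a call, 99 gained one and 0 reversed. The number of the 49 genes called moved by over 1.5 times as follows. With the 4 HMCES-KO libraries as 1 group it was 6 in place of 19, and DESeq2 gave 7 in place of 12 for KO8 against KO7. Without limma's trend it was 1 in place of 4 for untreated TPM, 2 in place of 6 for BMP4, 0 in place of 1 for LDN193189 and 0 in place of 1 for HMCES-KO2 against HMCES-KO1. The recovered reads gave 11 in place of 4. Quantile normalization and the length correction each gave 3 in place of 6 for BMP4, the length correction 0 for LDN193189, and averaging libraries per line 8 in place of 25. For these counts the cause was not tested, and the shares of all genes called under the same settings are not given here.

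Leaving out each library in turn gave 17 to 23 calls in the mean of KO8 and KO7, 8 to 26 in KO8, 10 to 25 in KO7, 4 to 16 for KO8 against KO7 and 1 to 5 in the untreated TPM table. The ranges were 3 to 7 under activin A (7 without either HMCES-KO library of the LDN193189 table), 2 to 9 under SB431542, 0 to 6 under BMP4, 0 to 2 under LDN193189, 21 to 28 in the mean of the treatments and 0 to 1 for HMCES-KO2 against HMCES-KO1. Where 1 library remained, it was assumed to vary like the other groups. With the replicate number as a block, calls were 19 in place of 19 in the mean of KO8 and KO7, 17 in place of 18 in KO8, 19 in place of 20 in KO7 and 11 in place of 12 between the lines. They were 6 in place of 4 under activin A, 10 in place of 9 under SB431542 and 26 in place of 25 in the mean of the treatments. The number stayed the same in untreated TPM, with 3 of 4 calls shared, under BMP4, with 5 of 6 shared, and under LDN193189. The block was not used for HMCES-KO2 against HMCES-KO1. The block is only a number shared between libraries. Here and above, the shares of all genes called with a library left out or with the block are not given. Genes with few reads, such as Rad51b and Fancl, are limited by depth.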
